A study of Homo sapiens with 9 samples.

Results

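NR2F1, NR2F2, RARB, BHLHE40, BHLHE41 and SOX9 are 6 nuclear receptors and transcription factors linked to tumour dormancy. They were chosen by name from the 58735 genes of the count table, with earlier results of these data known. Of the 6, 5 passed the filter on low counts and were among the 16928 genes tested, and RARB did not pass.

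Tumour dormancy is a reversible stop of growth in which disseminated cancer cells survive without dividing, and it is linked to TGF-beta 2, BMP and p38 MAP kinase signalling, to retinoic acid, and to inhibitors of cyclin-dependent kinases. NR2F1 (COUP-TFI) is an orphan nuclear receptor that induces dormancy programmes in several carcinomas, with SOX9 and the retinoic acid receptor RARB among the genes described downstream of it, and NR2F2 (COUP-TFII) is its closest relative. BHLHE41 (DEC2) and BHLHE40 (DEC1) are basic helix-loop-helix repressors that bind the E box CACGTG and restrain the circadian activators, and BHLHE41 has been described as a target of TGF-beta 2 and p38 in dormant cells.

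The regulators were measured in OVCAR4, an established human line of ovarian serous adenocarcinoma, in which MPZL3, a predicted cell adhesion molecule, was knocked down to ask what its loss does to ovarian cancer cells. The cells were transduced with lentivirus carrying the scramble (scr) control hairpin or 1 of 2 MPZL3 hairpins, shMPZL3 #1 (sh #1) and shMPZL3 #2 (sh #2), and all were selected with puromycin for 3 days. Poly-A RNA was sequenced without strand information in 3 biological replicates of each of the 3 groups, 9 libraries in all. The cultures were selected populations, not clones, and the knockdown left part of the MPZL3 transcript.

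Total counts ran from 15040102 to 27835841 per library. MPZL3 was at 536, 611 and 587 normalized counts (counts after scaling each library to a common effective size) in scr control, at 119, 143 and 123 with sh #1, and at 284, 380 and 271 with sh #2, so the knockdown was in the labelled direction in all 6 libraries and was deeper with sh #1. Of 10 markers of serous carcinoma epithelium, 9 had over 10 counts in every library, the exception being WT1 with 3 to 13. Of 11 markers of other cell types, 4 had at most 10 counts in every library, none was at 0 in all, and their summed per-length level was 10.5 to 11.2 TPM (a level per gene length, scaled to the same sum in each library) in scr control, 14.5 to 18.8 with sh #1 and 14.5 to 16.1 with sh #2. Within that list COL1A1, a fibroblast collagen, was at 4.31, 11.0 and 6.43 TPM in the 3 groups and CDH5, an endothelial cadherin, at 2.18, 1.68 and 4.39, and the part of these markers in the results below was not tested. Both shRNAs were compared with the same 3 control libraries, so their results are given side by side and not as independent support of each other.

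The data showed a split among the regulators. BHLHE41 and SOX9 rose after MPZL3 knockdown with each shRNA, BHLHE41 by a fold of 4.85 over both shRNAs and SOX9 by 2.61. In bulk RNA, a rise in every cell and a rise in some of the cells cannot be told apart. BHLHE40 was 1.15 times its control level and did not pass the adjusted threshold, NR2F1 and NR2F2 passed in no comparison, and RARB was too low to test. With both shRNAs grouped, 2 of the 5 tested regulators were called higher and none lower at an adjusted p-value under 0.05 (edgeR quasi-likelihood test), where 9.36% of all genes tested were called higher and 6.4% lower. With sh #1 alone, 2 of 5 were called higher and none lower, against 16.8% and 15.3% of all genes. With sh #2 alone, again 2 of 5 were called higher and none lower, against 9.36% and 5.8%. Between the shRNAs, SOX9 was the 1 regulator called, lower with sh #2, where 7.56% of all genes were called lower and 7.56% higher. The median log2 fold change of the 5 was 0.33 grouped, 0.38 for sh #1 and 0.28 for sh #2, where the medians over all genes were 0.02, 0.01 and 0.00. In 3 of the 5, BHLHE40, BHLHE41 and SOX9, the lowest of 6 knockdown libraries was above the highest control, which held for 11.8% of all genes, and in none was the highest of the 6 below the lowest control, which held for 11%.

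**Figure D1:**
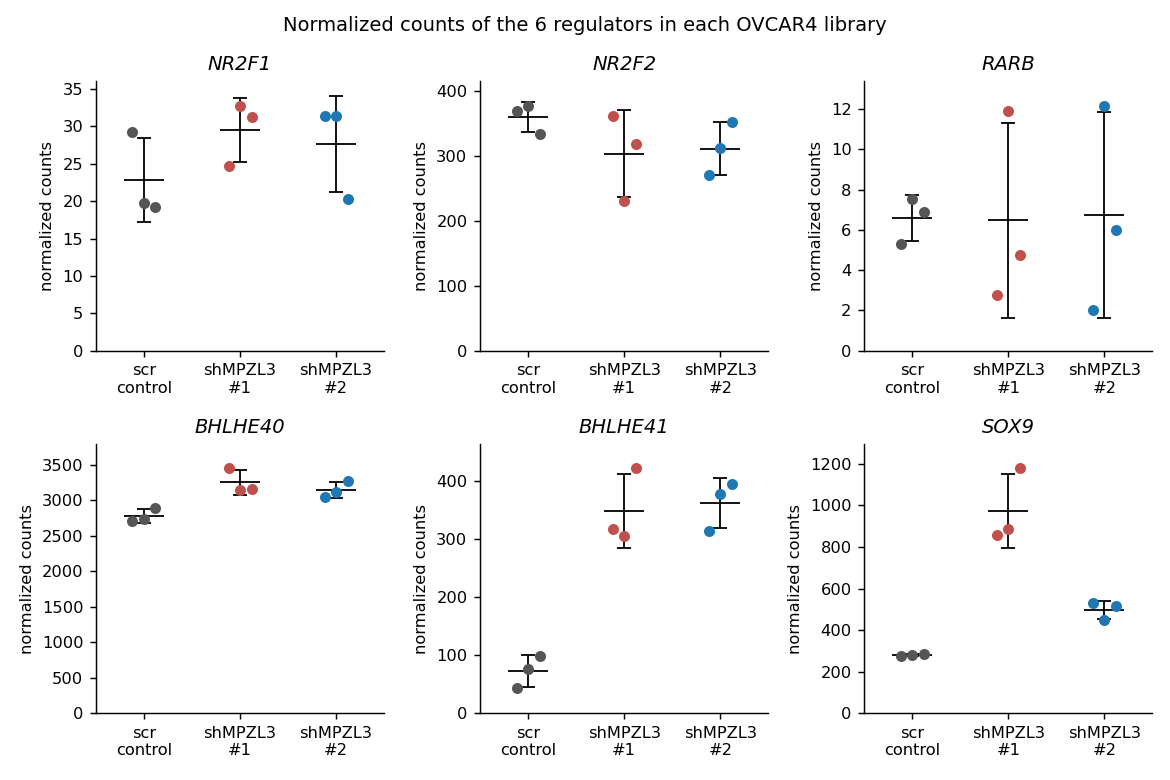
Normalized counts (vertical axes, from 0, on a scale of its own for each gene) of the 6 regulators in each of the 9 OVCAR4 libraries, by group. Points are libraries, the horizontal bar is the group mean and the whiskers are 1 SD (n = 3); BHLHE41 and SOX9 stand clear of scr control with both shRNAs, BHLHE40 does so by a small margin, and the groups of NR2F1, NR2F2 and RARB overlap.

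Short stretches of the promoter windows of 3 regulators are printed because they hold elements that these factors are known to bind, the E box of BHLHE40, BHLHE41 and the clock activators, and the retinoic acid response element of RARB. The letters are from RefSeq on GRCh38.p14 and run 5′ to 3′ on the strand of the gene, with the motif in capitals.
BHLHE40, chr3:4979187-4979216, plus strand: tccaaCACGTGagactcatgtgatgaagcc
BHLHE41, chr12:26125068-26125097, minus strand: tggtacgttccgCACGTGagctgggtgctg
RARB, chr3:25428204-25428233, plus strand: gggtagGGTTCACCGAAAGTTCActcgcat
The E box lay 240 to 245 bases before the RefSeq start of BHLHE40 and 43 to 48 bases before that of BHLHE41, and in GENCODE release 29, whose starts lie further upstream, both stretches fall in noncoding exon sequence. The RARB element is a direct repeat of 2 receptor sites with 5 bases between them, 37 to 53 bases before 1 of the 4 RefSeq starts of the gene and outside any exon.

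The searched motifs were CACGTG, which reads the same on both strands, and, on either strand, direct repeats of a 6-base receptor site (AGGTCA, its variant AGTTCA, its variant GGTTCA and its variant GGGTCA) with a spacer of 5 bases or of 1 base, in the 250 bases before each start. CACGTG was in 6.345% of 35116 windows, which belonged to 7.728% of 27305 genes, and in 21.05% of the 19 clock genes with a window (4 genes). The 5-base repeat was in 26 windows, 0.07404% of all, and the 1-base repeat, the kind that COUP-TF receptors are known to bind, was in 34 windows and in none of the windows of NR2F1, NR2F2, RARB, BHLHE40 and BHLHE41. NR2F2 had CACGTG at 2 places in a window that lies within its coding exon sequence, so these are not shown as promoter sites. NR2F1 had none of the motifs in its 2 windows, and SOX9 was not searched. A match is a description of the letters and was not read as a bound site.

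BHLHE41 (ENSG00000123095, chr12:26120026-26125127, minus strand) encodes the repressor DEC2, which limits CLOCK and ARNTL activity and restrains growth. It had 43.9, 77.3 and 99.0 normalized counts in scr control, 318, 306 and 423 with sh #1, and 315, 378 and 396 with sh #2. All 6 knockdown libraries lay above all 3 controls, the lowest of them at 306 against 99.0 in the highest control. The means were 73.4 ± 27.8 in scr control, 349 ± 64.3 with sh #1 and 363 ± 42.7 with sh #2 (SD, n = 3). The log2 fold change was 2.25 (SE 0.22) for sh #1 and 2.30 (SE 0.22) for sh #2, with adjusted p-values of 5.42e-06 and 5.17e-06 by edgeR. Both shRNAs grouped gave 2.28 (SE 0.23, adjusted p = 0.000106 by edgeR), and the two-sided exact permutation test gave p = 0.0119, the smallest that 6 against 3 libraries allow (3 against 3 cannot go below 0.1). This was rank 150 of the 16928 genes ordered from the largest rise, and 58 of the 13058 genes whose average log2 CPM reached 1 rose more.

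No difference in BHLHE41 was detected between the hairpins. The log2 difference between sh #2 and sh #1 was 0.06, with a 95% confidence interval from -0.36 to 0.47 and an adjusted p of 0.878 by edgeR, so differences within that interval could not be told from 0 with 3 libraries a group. The control level was the least certain of its 3 groups, with a coefficient of variation of 37.8% against 18.4% and 11.8%, and leaving out each library in turn gave log2 fold changes between 2.01 and 2.52. BHLHE41 overlaps SSPN, which encodes sarcospan, on the opposite strand over 162 of its 3948 exon bases, and without strand the reads of these bases cannot be told apart. SSPN was at 181, 312 and 229 normalized counts in the 3 groups (grouped log2 fold change 0.58, adjusted p = 0.0716 by edgeR), and its part in the counts of BHLHE41 was not tested.

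BHLHE40 (ENSG00000134107, chr3:4979116-4985323, plus strand) encodes DEC1, the paralogue of DEC2 that responds to hypoxia and many other stimuli. It had 2711, 2732 and 2887 normalized counts in scr control, 3448, 3144 and 3158 with sh #1, and 3047, 3110 and 3267 with sh #2. Every knockdown library lay above every control, but by a margin that was small against the level. The means were 2777 ± 96.0, 3250 ± 172 and 3141 ± 113 (SD, n = 3), and the grouped log2 fold change was 0.20 (SE 0.09, 95% confidence interval 0.02 to 0.39, adjusted p = 0.12 by edgeR, exact permutation p = 0.0119). For sh #1 it was 0.23 (adjusted p = 0.063 by edgeR) and for sh #2 it was 0.18 (adjusted p = 0.198 by edgeR). The call for sh #1 turned with the processing: the adjusted p was 0.0326 with upper-quartile scaling, 0.0257 with a minimum of 10 counts in every library and 0.0421 with DESeq2, within a range from 0.0257 to 0.191 over its 15 alternatives. No stretch of 50 bases was shared between the transcripts of BHLHE40 and BHLHE41, or between those of any other pair of the 6 regulators.

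SOX9 (ENSG00000125398, chr17:72121020-72126420, plus strand) encodes an HMG-box factor of cartilage and of epithelial progenitor cells. It had 278, 281 and 286 normalized counts in scr control, 857, 886 and 1178 with sh #1, and 528, 449 and 514 with sh #2. The 3 groups did not overlap, with scr control lowest and sh #1 highest. The means were 282 ± 4.06, 974 ± 178 and 497 ± 42.1 (SD, n = 3). The log2 fold change was 1.79 (SE 0.14, adjusted p = 4.98e-07 by edgeR) for sh #1 and 0.82 (SE 0.14, adjusted p = 0.000597 by edgeR) for sh #2, folds of 3.46 and 1.77. Grouped, it was 1.38 (SE 0.28, adjusted p = 0.00632 by edgeR, exact permutation p = 0.0238), and it stayed between 1.20 and 1.49 when each library was left out.

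The difference between the hairpins was itself tested for SOX9. It was lower with sh #2 than with sh #1 by a log2 difference of -0.97 (SE 0.13, 95% confidence interval -1.25 to -0.69, adjusted p = 0.000129 by edgeR), where the same difference for MPZL3 was 1.28 (adjusted p = 5.72e-05 by edgeR). SOX9 was higher with the hairpin that left less MPZL3 transcript, and whether SOX9 and BHLHE41 differ from each other in this respect was not tested. With 1 hairpin at each depth of knockdown, depth and other differences between the hairpins cannot be told apart. SOX9-AS1, the noncoding neighbour on the opposite strand, shares no exon base with SOX9 and had 46 counts over all libraries.

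NR2F1 (ENSG00000175745, chr5:93583224-93594615, plus strand), a receptor of neural and mesenchymal development, was close to the lower limit of what could be tested. It had 22, 21 and 14 counts in scr control, 27, 33 and 33 with sh #1, and 31, 31 and 27 with sh #2, which after scaling were 29.3, 19.8 and 19.2, then 24.7, 32.8 and 31.2, then 31.4, 31.4 and 20.3 normalized counts. The groups overlapped, since 1 control library lay above the lowest library of each hairpin. The grouped log2 fold change was 0.33 (SE 0.31, adjusted p = 0.504 by edgeR), with a 95% confidence interval from -0.34 to 1.00, and the value was 0.38 for sh #1 and 0.28 for sh #2, neither called. A change within that interval could not be told from 0 in these libraries. NR2F1-AS1, on the opposite strand, shares 158 exon bases with NR2F1 and had 120 counts over all libraries against 239 for NR2F1, and reads of the shared bases cannot be told apart.

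NR2F2 (ENSG00000185551, chr15:96325938-96340263, plus strand), a receptor of mesenchyme, vessels and hormone-responsive tissues, was per length the more abundant of the COUP-TF pair. It had 368, 377 and 334 normalized counts in scr control, 362, 231 and 318 with sh #1, and 270, 311 and 352 with sh #2. The knockdown libraries spread more widely than the controls and overlapped them, with 2 of the 6 inside the control range. The means were 360 ± 22.8, 303 ± 66.7 and 311 ± 40.7 (SD, n = 3). The grouped log2 fold change was -0.23 (SE 0.15, 95% confidence interval -0.55 to 0.09, adjusted p = 0.318 by edgeR), and the value was -0.25 for sh #1 and -0.21 for sh #2, neither called.

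RARB (ENSG00000077092, chr3:25174332-25597932, plus strand), the retinoic acid receptor that is itself induced by retinoic acid and is often silenced in carcinomas, was barely detected. It had 4, 8 and 5 counts in scr control, 3, 12 and 5 with sh #1, and 2, 12 and 8 with sh #2, 59 over all libraries. No group stood apart, the means being 6.58 ± 1.14, 6.47 ± 4.83 and 6.74 ± 5.11 normalized counts (SD, n = 3). Without the filter the fit gave a grouped log2 fold change of -0.01 with an SE of 0.75, too wide to read a direction from. RARB shares 28 exon bases with TOP2B on the opposite strand, which had 33185 counts, and reads of those bases cannot be told apart.

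**Figure D2:**
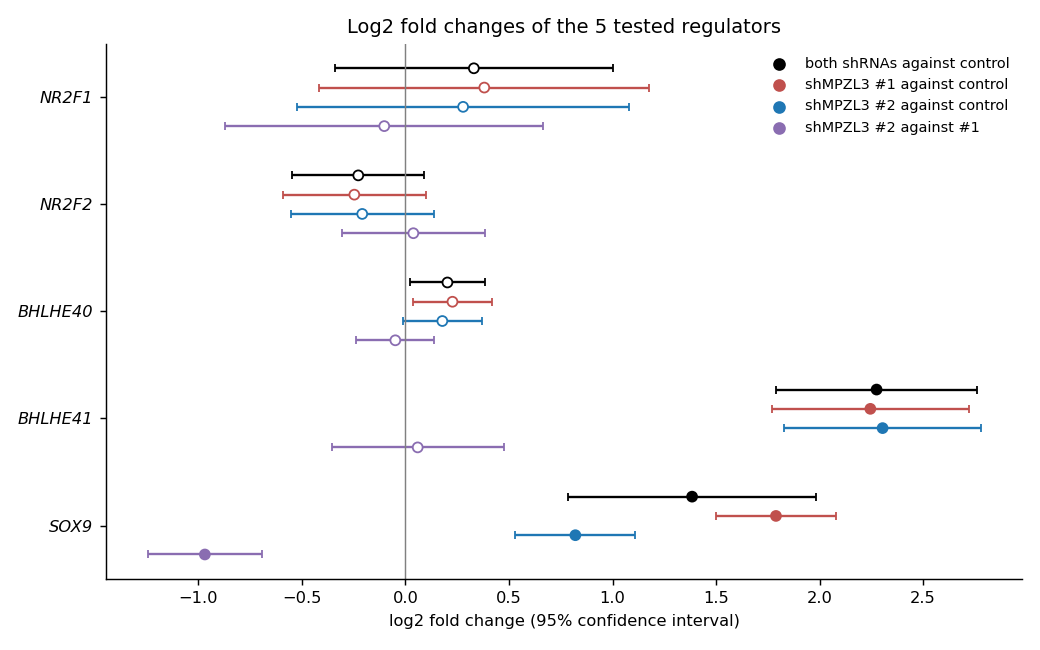
Log2 fold change (horizontal axis) with its 95% confidence interval for the 5 tested regulators, for both shRNAs grouped, each shRNA against scr control, and shMPZL3 #2 against shMPZL3 #1. Filled points passed an adjusted p-value of 0.05 and open points did not; BHLHE41 lies near 2.28 with either hairpin, and the points of SOX9 spread from 1.79 for shMPZL3 #1 to 0.82 for shMPZL3 #2.

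Per length, the regulators spanned a wide range of levels, and knockdown changed their order at 1 place. In scr control, BHLHE40 was highest at 115 ± 3.76 TPM, above 93.7% of 19951 protein-coding genes. SOX9 at 11.4 ± 0.187, NR2F2 at 8.89 ± 0.614, BHLHE41 at 2.97 ± 1.12, NR2F1 at 0.841 ± 0.204 and RARB at 0.284 ± 0.0513 TPM followed (SD, n = 3). No neighbours in that order overlapped in their control libraries; the closest pairs were SOX9 and NR2F2, at 11.2 to 11.5 and 8.22 to 9.41 TPM. With sh #1, BHLHE41 at 13.8 ± 2.71 TPM stood above NR2F2 at 7.29 ± 1.34, and with sh #2 it stood at 14.2 ± 1.79 against 7.44 ± 1.01, again without overlap (SD, n = 3).

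**Figure D3:**
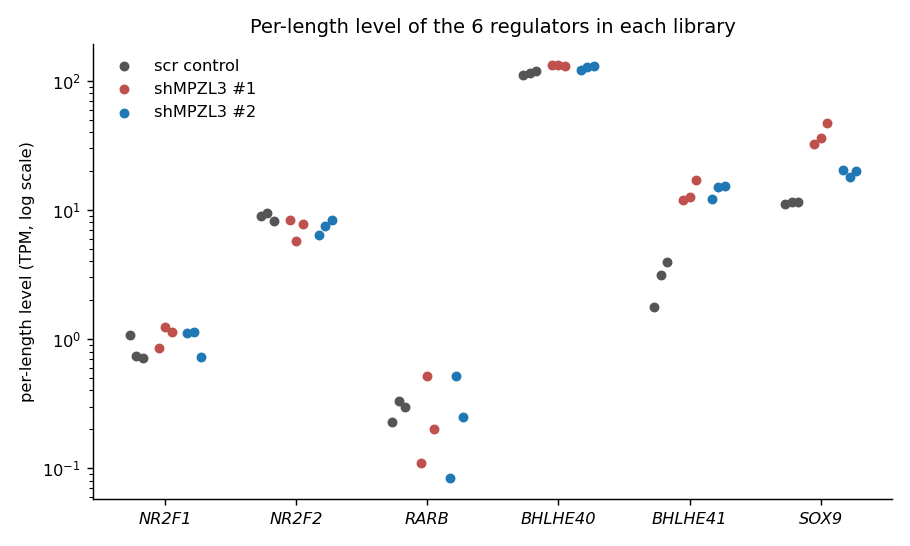
Per-length level in TPM (vertical axis, log scale) of the 6 regulators in the 9 libraries, coloured by group, with each point a library. BHLHE40 lies highest in every library, between 112 and 134 TPM, and BHLHE41 moves from below NR2F2 in scr control to above it with each shRNA.

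The genes whose pattern over the 9 libraries was most like that of each tested regulator were found by Pearson's r of log2 CPM among 11912 protein-coding genes, as a description in which libraries and groups are shared. For BHLHE41 they were IER3, an immediate early response gene (r = 0.996), IL4R, the interleukin 4 receptor (r = 0.995), and MGLL, a monoglyceride lipase (r = 0.994). IER3 had means of 2901, 6396 and 6722 normalized counts in scr control, sh #1 and sh #2. For SOX9 they were HPS1 (r = 0.994), LMOD1 (r = 0.992) and HTR3A (r = 0.992), and LMOD1, a smooth muscle actin nucleator, had means of 400 in scr control, 1281 with sh #1 and 714 with sh #2. For BHLHE40 they were ETHE1 (r = 0.954), PDE8A (r = 0.946) and IDH2 (r = 0.946). The values were lower for NR2F1, with SETDB2 (r = 0.936), MLYCD (r = 0.928) and U2AF1 (r = 0.927), the last with a near-identical copy in this build that makes its counts uncertain, and for NR2F2, with LEMD1 (r = 0.911), REPS1 (r = 0.878) and KAT2A (r = 0.875).

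Around these factors, the signals and receptors tied to dormancy moved in both directions. The list holds dormancy ligands, such as BMP7, beside PLAU, whose receptor signals growth, so its rises and falls do not share 1 meaning. Of 26 tested genes of that list, 9 rose and 4 fell with both shRNAs grouped (11 and 5 with sh #1, 10 and 3 with sh #2), and their median log2 fold change was 0.29 where that of all genes was 0.02. The shares of the list called higher and lower were 34.6% and 15.4% grouped, beside 9.36% and 6.4% of all genes, 42.3% and 19.2% with sh #1, beside 16.8% and 15.3%, and 38.5% and 11.5% with sh #2, beside 9.36% and 5.8%. TGFB2, the ligand described upstream of BHLHE41, rose from 197 ± 39.3 normalized counts to 446 ± 89.5 and 423 ± 51.9 (SD, n = 3), with a grouped log2 fold change of 1.13 (adjusted p = 0.00124 by edgeR) and no overlap between control and knockdown libraries. No difference in TGFB2 was detected between the hairpins, the log2 value being -0.07 with a 95% confidence interval from -0.43 to 0.28. The largest rise among the called genes of the list was that of PLAU, the urokinase whose receptor signals growth through ERK, by 1.84 (adjusted p = 0.0106 by edgeR). THBS1, a matrix glycoprotein of the vascular niche, rose by 1.37, and GAS6, a ligand linked to dormancy in marrow, rose by 1.17 (adjusted p = 0.00105 and 0.000591 by edgeR). Its receptor AXL fell by 1.04 on the log2 scale, BMP7, a dormancy ligand of bone, fell by 0.83, and WNT5A fell by 0.55 (adjusted p = 0.0372, 0.0118 and 0.0124 by edgeR). AXL, with 20 to 82 counts in a library, was not called with sh #2 alone (log2 fold change -0.72, adjusted p = 0.118 by edgeR). The count of called genes on this list depended on the controls: it was 5 without control replicate 1, 6 without control replicate 2 and 8 without control replicate 3, and the calls of AXL, BMP7, WNT5A and PLAU (adjusted p = 0.0700 without control replicate 1) were among those lost in at least 1 of these fits.

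The effectors on which dormancy signals are thought to act gave 4 rises and 2 falls among 25 tested genes when grouped (5 and 6 with sh #1, 7 and 1 with sh #2), with a median log2 fold change of -0.05. Grouped, these are 16% and 8% of the list beside 9.36% and 6.4% of all genes, and with sh #1 they are 20% and 24% beside 16.8% and 15.3%. With sh #2 they are 28% and 4% beside 9.36% and 5.8%. The list holds inhibitors of division, such as CDKN1A, beside markers of cycling cells, such as MKI67. Its counts and median therefore do not give 1 direction. CDKN1A, the cyclin-dependent kinase inhibitor p21, rose from 959 ± 153 normalized counts to 1962 ± 339 and 2241 ± 61.3 (SD, n = 3), by a grouped log2 fold change of 1.13 (adjusted p = 0.000473 by edgeR). GADD45A, a stress-induced growth arrest gene, rose by 1.32, and MAPK11, the p38 beta kinase, by 1.16 (adjusted p = 0.00265 and 0.00244 by edgeR). The fourth rise, DYRK1B, a kinase of quiescent cells, was named after its values were seen, at 0.50 (adjusted p = 0.0163 by edgeR). CDKN1B, the inhibitor p27 that is often paired with BHLHE41 in dormant cells, was not called when grouped, at 1434 ± 44.9, 1151 ± 149 and 1432 ± 85.4 normalized counts (SD, n = 3) and a grouped log2 fold change of -0.15 (adjusted p = 0.426 by edgeR), and with sh #1 alone it was called lower, at -0.32 (adjusted p = 0.0314 by edgeR). That call was lost in 5 of the 9 fits that left out 1 library, with adjusted p-values from 0.0571 to 0.124. MAPK14, the p38 alpha kinase, was not called either, at 0.09 (adjusted p = 0.514 by edgeR). The falls were those of MKI67, a marker of cycling cells, by 0.49 on the log2 scale, and of LIN9, a subunit of the DREAM complex, by 0.50 (adjusted p = 0.0229 and 0.0485 by edgeR). With sh #2 alone neither MKI67 nor LIN9 was called (log2 fold change -0.36 and -0.33, adjusted p = 0.0501 and 0.16 by edgeR). The calls of MKI67, LIN9 and DYRK1B were lost when any 1 of the 3 control libraries was left out, and 3 genes of the list were called in each of those fits. LIN9 lost its call in 10 of 16 alternatives, with adjusted p-values up to 0.254.

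The retinoic acid pathway, in which RARB is a receptor, had calls in both directions at shares near those of all genes when grouped. Of 29 tested genes, 3 rose and 2 fell when grouped (4 and 7 with sh #1, 3 and 4 with sh #2), and the median was -0.16. The grouped counts are 10.3% and 6.9% of the list, beside 9.36% and 6.4% of all genes called higher and lower. With sh #1 the shares were 13.8% and 24.1%, beside 16.8% and 15.3% of all genes. With sh #2 they were 10.3% and 13.8%, beside 9.36% and 5.8%, so the share of falls was above that of all genes with each hairpin. RDH10, the retinol dehydrogenase that starts retinoic acid synthesis, fell from 1906 ± 415 normalized counts to 930 ± 159 and 933 ± 229 (SD, n = 3), a grouped log2 fold change of -1.03 (adjusted p = 0.00139 by edgeR). ALDH1A3, which completes the synthesis, rose by 1.00, RARRES3, a retinoid-inducible growth suppressor, by 1.57, and NCOA1, a receptor coactivator, by 0.41 (adjusted p = 0.0385, 0.029 and 0.0425 by edgeR). The other fall, CRABP1, a cytoplasmic retinoic acid binding protein at a low level, was named after its values were seen, at -1.41 (adjusted p = 0.0101 by edgeR). The receptors RARA, at 0.23 (adjusted p = 0.351 by edgeR), and RXRA, at -0.19 (adjusted p = 0.456 by edgeR), were not called in the grouped comparison. The 3 rises were lost when any 1 of the 3 control libraries was left out, which left 2, 2 and 1 genes of the list called, and 11 were called when the mean of both shRNAs was tested in a fit of 3 groups.

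Among the clock genes that BHLHE40 and BHLHE41 are known to restrain, 1 of 20 tested, NPAS2, a partner of ARNTL, rose when grouped, and none fell (2 and 0 with each shRNA), with a median of 0.01. NPAS2 went from 484 ± 65.3 normalized counts to 636 ± 51.2 and 733 ± 35.5 (SD, n = 3), a log2 fold change of 0.50 (adjusted p = 0.0165 by edgeR). Its call was lost in 2 of 16 alternatives, without control replicate 1 (adjusted p = 0.123 by edgeR) and without control replicate 2. PER1, an E-box gene of the core loop, was at 0.04 (adjusted p = 0.905 by edgeR) and ARNTL at 0.34 (adjusted p = 0.217 by edgeR). The 1 clock gene is 5% of those tested, beside 9.36% of all genes called higher. With each shRNA 10% of the clock genes were called higher, beside 16.8% of all genes for sh #1 and 9.36% for sh #2. Of 11 tested hypoxia genes, a group to which BHLHE40 is often assigned, 3 rose and none fell when grouped (3 and 4 with sh #1, 5 and 0 with sh #2), with a median of 0.02. With sh #1, 27.3% of the list were called higher and 36.4% lower, beside 16.8% and 15.3% of all genes. The 4 called lower with sh #1 were BNIP3, PDK1, SLC2A1 and VEGFA, named after their values were seen. With sh #2 the shares were 45.5% and 0%, beside 9.36% and 5.8%, so the hairpins differed in the balance of rises and falls. The grouped rises are 27.3% of the list, beside 9.36% of all genes. They were ADM, the vasodilator adrenomedullin, by 1.35, EGLN3, an oxygen sensor, by 0.88, and EPAS1, the HIF2 alpha subunit, by 0.61 (adjusted p = 0.00103, 0.00084 and 0.0101 by edgeR), the last at an adjusted p of 0.0522 without control replicate 1.

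The relatives of SOX9 and of the COUP-TF receptors were counted in the same way. Of 13 other SOX genes tested, 2 rose and 1 fell when grouped (4 and 1 with sh #1, 3 and 2 with sh #2), with a median of 0.11. The grouped counts are 15.4% and 7.69% of the list, beside 9.36% and 6.4% of all genes. With sh #1 the shares were 30.8% and 7.69%, beside 16.8% and 15.3%, and with sh #2 they were 23.1% and 15.4%, beside 9.36% and 5.8%. SOX8, a member of the same subgroup as SOX9, rose from a low 15.5 ± 4.19 normalized counts to 61.0 ± 29.1 and 43.6 ± 13.7 (SD, n = 3), by a log2 fold change of 1.74 (adjusted p = 0.016 by edgeR). SOX4, a factor of progenitor and tumour cells, rose by 0.55 and SOX5, a partner of SOX9 in cartilage, fell by 0.94 on the log2 scale (adjusted p = 0.0226 and 0.00913 by edgeR). SOX6, the close relative of SOX5, was named after its values were seen, because it rose by 0.85 with sh #1 and fell by 1.00 on the log2 scale with sh #2 (adjusted p = 0.00383 and 0.00432 by edgeR). Without control replicate 1 no SOX gene of the list was called when grouped, and without control replicate 2 or 3, 1 was. Of 12 cartilage genes known as SOX9 targets, 5 passed the filter, and none was called by edgeR in any comparison or by DESeq2 when grouped. At an unadjusted p under 0.05 the count was 0 grouped and with sh #2, and 2 with sh #1. Of 10 tested orphan receptors other than the COUP-TF pair, none was called against control by edgeR, or by DESeq2 when grouped, and 1 grouped, 3 with sh #1 and 2 with sh #2 had an unadjusted p under 0.05. NR2F6, the third member of that subfamily, was at 0.05 (adjusted p = 0.793 by edgeR) with 8708 ± 403, 9137 ± 1207 and 8933 ± 1396 normalized counts (SD, n = 3).

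**Figure D4:**
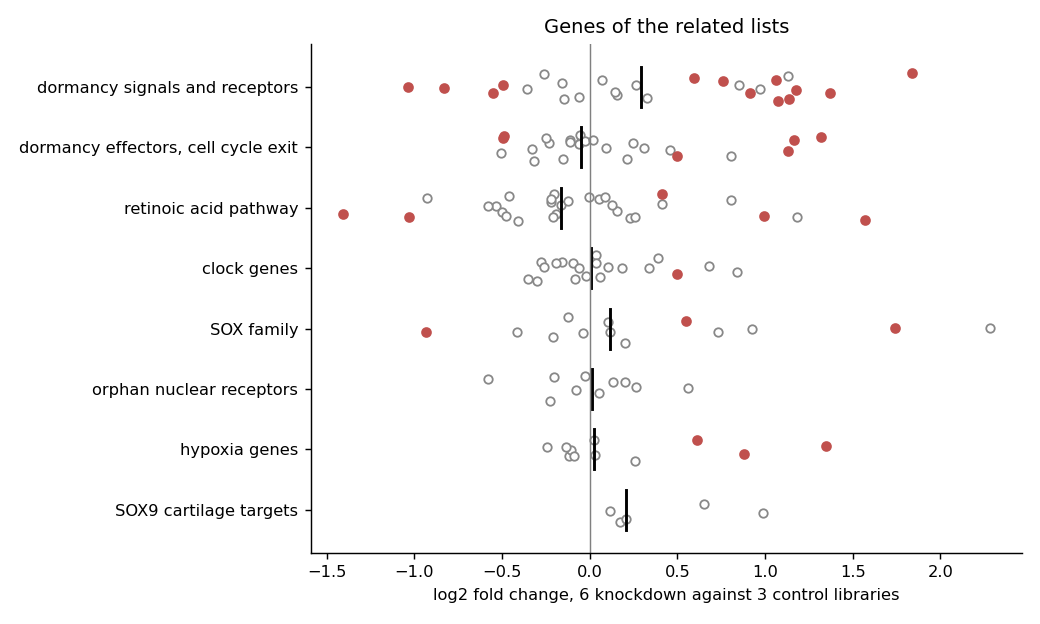
Log2 fold change of the 6 knockdown against the 3 control libraries (horizontal axis) for the tested genes of 8 lists related to the regulators, each point a gene and the black bar the median of its list. Filled points passed an adjusted p-value of 0.05 and open points did not; the dormancy signals have 9 filled points to the right of 0 and 4 to the left, and the cartilage targets and orphan receptors have none.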

How the data were processed

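RNA-seq was made from 9 OVCAR4 libraries, 3 each of scr control, shMPZL3 #1 and shMPZL3 #2, grouped by their labels. The authors deposited raw counts per gene and library, with no normalization. The submitters' processing notes name HISAT2 2.0.5, featureCounts 1.5.0-p3 and hg38. All 58735 genes matched GENCODE release 29 in position and name. The mean share of mitochondrial counts was 7.37% for scr control, 8.31% for shMPZL3 #1 and 7.56% for shMPZL3 #2. No 2 replicates were alike within counting noise.

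The counts were tested with edgeR 4.0.16 in R 4.3.3: filterByExpr, TMM scaling, two-sided quasi-likelihood tests with Benjamini-Hochberg adjustment over 16928 genes, calls at an adjusted p under 0.05. The knockdown libraries were tested as 1 group, as the study grouped them, and each shRNA in a fit of 3 groups. TPM used the deposited gene length. Log2 CPM had a prior count of 2. Exact permutation tests went through every split of the libraries in Python 3.11.15. The tests were run on simulated data in which both hairpins were given the same changes. That check therefore did not cover the grouped test where the hairpins differ. p-values measure the spread between these libraries, which edgeR estimates with information shared across genes. In the grouped comparison that spread includes the difference between the hairpins, and the SE of SOX9 was 0.28 grouped and 0.14 for each shRNA. Counting error is large where a library has few counts of a gene.

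The regulators and gene lists were chosen with earlier results of these data known. List genes were named by rule: up to 3 largest rises and 3 largest falls among those called in the grouped comparison whose average log2 CPM reached 1, and 10 genes named always, MPZL3 among them. Alternatives were DESeq2 1.42.0, RLE and upper-quartile scaling, no filter, a minimum of 10 counts, a replicate block, the mean of both shRNAs in the fit of 3 groups, and leaving out each library. Those for the lists and list genes were added after seeing the data.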

Additional observations from a re-analysis of the deposited data

Results flagged for a closer look

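The results here had a difference between the 2 hairpins that passed its own test in edgeR, with values given as the log2 difference of shMPZL3 #2 against shMPZL3 #1. SOX9 was lower with shMPZL3 #2, at -0.97 (adjusted p = 0.000129), where MPZL3 itself was higher, at 1.28 (adjusted p = 5.72e-05). Depth of knockdown and other differences between the hairpins cannot be told apart here. SOX4 was lower with shMPZL3 #2 too, at -0.38 (adjusted p = 0.0317), as were RARRES3, at -1.20 (adjusted p = 0.00969), NCOA1, at -0.39 (adjusted p = 0.01), and PLAU, at -1.50 (adjusted p = 4.12e-06). Each of these rose against control with shMPZL3 #1, and RARRES3 and NCOA1 were not called with shMPZL3 #2 (adjusted p = 0.084 and 0.165). BMP7, which fell with both hairpins, had a difference of -0.50 (adjusted p = 0.0416), and GADD45A, which rose with both, one of 0.54 (adjusted p = 0.0475). RXRA, the common partner of RARB, had a difference of -0.46 (adjusted p = 0.0339), at 665 ± 38.2 normalized counts in the controls, 673 ± 60.6 under shMPZL3 #1 and 492 ± 102 under shMPZL3 #2 (SD, n = 3). SOX6 went in opposite directions with the hairpins and had a difference of -1.85 (adjusted p = 2.99e-05). Several of these calls depended on the processing or on 1 library. Over 15 alternatives the difference lost its call in 9 for GADD45A (adjusted p up to 0.171), in 6 for BMP7 (up to 0.179), in 6 for RXRA (up to 0.165), in 5 for SOX4 (up to 0.164) and in 1 for RARRES3, which was without replicate 3 of shMPZL3 #1 (0.0725). For GADD45A 2 of the 9 kept every library, upper-quartile scaling and the minimum of 10 counts, and the others, like all those of BMP7, RXRA and SOX4, left out 1 library. These included control replicates 2 and 3, replicate 1 of shMPZL3 #1 for BMP7, RXRA and GADD45A, its replicate 2 for GADD45A, its replicate 3 for BMP7, RXRA and SOX4, replicate 1 of shMPZL3 #2 for GADD45A, and its replicates 2 and 3 for all 4 genes. The rise of SOX4 against control with shMPZL3 #2 lost its call in 6 of 15 alternatives (up to 0.170). No library of a regulator stood apart by a gap test in the 6 knockdown libraries, and groups of 3 were too small to test.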

How the results depend on the processing

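Of the 5 tested regulators, 2 were called against control under every alternative, BHLHE41 and SOX9, and for shMPZL3 #1 BHLHE40 was called too under 4 alternatives. The highest adjusted p over the 16 alternatives of the grouped comparison was 0.0018 for BHLHE41 and 0.0472 for SOX9. Between the shRNAs SOX9 was the 1 regulator called under each of 15 alternatives. Between the hairpins, the correlations of deviations from the group mean were 0.0966 to 0.218 for libraries of the same replicate number. For different numbers they were -0.147 to 0.00376. Between control and knockdown libraries they were -0.00143 to 0.111 for the same number and -0.0965 to 0.0671 for different numbers. Whether the replicate numbers pair the libraries was not tested, and the main fits had no replicate block. With a replicate block, BHLHE40 passed for shMPZL3 #1 at 0.23 (adjusted p = 0.0413), the block raised the clock genes called from 1 to 2, and NCOA1 lost its grouped call (adjusted p = 0.0644).

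The counts over all genes and over 5 of the lists moved, and the cause was not tested. Grouped, 2667 genes were called, 4677 with the mean of both shRNAs in the fit of 3 groups, and 625 to 3187 when each library was left out, with 625, 962 and 1238 without control replicates 1, 2 and 3. For shMPZL3 #2 the range was 1366 to 3055, with 1398 and 1579 without control replicates 1 and 2 and 1366 without its own replicate 3. Between the shRNAs it was 1469 to 2953, with 1584 without replicate 3 of shMPZL3 #1, and 1647 and 1469 without replicates 1 and 3 of shMPZL3 #2. Of the retinoic acid genes 11 were called with no filter and 11 with the mean of both shRNAs, and 1 to 7 with each library left out. Of the clock genes 2 were called with RLE, no filter or DESeq2, 3 with the mean of both shRNAs, and 0 to 2 with each library left out, where leaving out control replicate 1 or 2 gave 0. Leaving out each library gave 5 to 14 for the dormancy signals, 3 to 9 for the effectors and 0 to 4 for the SOX family, and the mean of both shRNAs gave 12 for the effectors.

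Small values changed sign as libraries were left out. Between the shRNAs, NR2F1 ran from -0.23 to 0.081, NR2F2 from -0.12 to 0.18, BHLHE41 from -0.026 to 0.22 and TGFB2 from -0.24 to 0.024, PER1 ran from -0.14 to 0.17 when grouped and RXRA from -0.038 to 0.089 for shMPZL3 #1. Grouped, SOX6 ran from -0.048 to 0.41 and was -0.074 with the mean of both shRNAs.

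RARB, with at most 12 counts in a library, and NR2F1, with 14 to 33, were limited by depth. The scaling moved the median of all genes by at most 0.02 on the log2 scale. Annotation overlaps on the opposite strand could not be separated in libraries without strand.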
